A study of Homo sapiens with 2 samples.

Results

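The snoRNA host lncRNA genes are long non-coding RNA genes that carry small nucleolar RNA (snoRNA) genes in their introns. They were taken as the GENCODE 44 lncRNA genes whose symbol is SNHG followed by a digit, together with GAS5, ZFAS1 and EPB41L4A-AS1, which gave 31 genes of 62700 in the annotation. Binding of IGF2BP3, an RNA-binding protein and reader of the RNA mark N6-methyladenosine, had been mapped by LACE-seq in OE-19, an established line derived from a tumour at the junction of oesophagus and stomach. The 2 samples were replicates 1 and 2 of a single group, cells grown in RPMI1640 medium with serum and antibiotics, crosslinked with UV light and immunoprecipitated with an IGF2BP3 antibody. No input or IgG library was used here, so binding and the abundance of an RNA cannot be told apart, and all results below are descriptions with no test.

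A snoRNA is cut out of a spliced host intron and protected by its own proteins while the rest of the intron is degraded. Box C/D snoRNAs (SNORD genes) guide ribose methylation and box H/ACA snoRNAs (SNORA genes) guide pseudouridylation, mainly of ribosomal RNA. The related scaRNAs (SCARNA genes) gather in Cajal bodies and guide the same changes in spliceosomal RNAs. The exons of these hosts are joined into a spliced RNA with little coding capacity. Several such RNAs, GAS5, ZFAS1 and SNHG1 among them, have been studied in cancer.

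Replicate 1 held 21142 peaks and replicate 2 held 20799, and 50 and 56 of them overlapped a host gene by at least 1 bp. Each peak has a fold enrichment, which is the read pileup at the summit over the background that the authors' peak caller modelled there, each plus 1. Median fold enrichment over all peaks was 6.89 and 7.13. The median recovered pileup at the summit was 22 reads in each list, and the narrowest peaks were 293 and 294 bp, longer than every intronic snoRNA gene of the hosts (59 to 275 nt, median 82 nt). Peaks carry no strand. The epithelial genes fixed as OE-19 markers, ERBB2, EPCAM, KRT8, KRT18, KRT19, CDH1, CDX2 and VIL1, had overlapping peaks in both replicates in 8 of 8 cases. VIM, PTPRC, COL1A1 and PECAM1, markers of other cell types, had a peak in both in 0 of 4, with PTPRC listed in replicate 1 only at 7.45-fold and COL1A1 in replicate 2 only at 5.84-fold.

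The snoRNA genes shown here lie under the strongest overlapping peaks of their hosts, or under the peaks of ZFAS1, in both replicates, and the SNORA73 and SNORD12 genes are shown with their paralogs. They are given as hg38 DNA letters, read from the genome on the strand of the host. SNORD60 lies at chr16:2155023-2155105 on the minus strand in an intron of SNHG19, SNORD50B at chr6:85677589-85677658 (minus) in SNHG5, SNORD12C at chr20:49278940-49279028 and SNORD12 at chr20:49280683-49280772 (both plus) in ZFAS1, and SNORD52 at chr6:31837076-31837142 (plus) in SNHG32. SNORA73A at chr1:28507366-28507571 and SNORA73B at chr1:28508559-28508762 (both plus) lie in SNHG3, and SCARNA13 lies at chr14:95533355-95533629 (minus) in SNHG10. Capitals mark TGATGA within the first 20 nt (the core of box C) and CTGA within the last 15 nt (box D) of the SNORD genes, and ACA within the last 8 nt of the others.
SNORD60: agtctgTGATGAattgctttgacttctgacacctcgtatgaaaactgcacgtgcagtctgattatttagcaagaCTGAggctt
SNORD50B: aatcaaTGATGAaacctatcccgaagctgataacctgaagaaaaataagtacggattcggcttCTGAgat
SNORD12C: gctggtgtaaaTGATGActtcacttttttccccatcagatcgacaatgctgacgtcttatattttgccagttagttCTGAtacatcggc
SNORD12: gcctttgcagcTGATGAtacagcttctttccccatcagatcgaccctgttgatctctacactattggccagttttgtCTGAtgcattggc
SNORD52: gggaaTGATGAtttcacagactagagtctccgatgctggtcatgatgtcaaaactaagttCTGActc
SNORA73A: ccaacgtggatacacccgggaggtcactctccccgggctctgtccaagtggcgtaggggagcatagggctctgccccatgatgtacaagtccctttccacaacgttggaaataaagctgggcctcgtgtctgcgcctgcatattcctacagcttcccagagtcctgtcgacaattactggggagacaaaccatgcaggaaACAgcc
SNORA73B: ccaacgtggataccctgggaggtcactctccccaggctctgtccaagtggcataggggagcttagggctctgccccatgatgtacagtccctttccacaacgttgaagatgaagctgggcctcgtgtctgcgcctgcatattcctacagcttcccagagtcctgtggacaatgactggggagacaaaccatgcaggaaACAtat
SCARNA13: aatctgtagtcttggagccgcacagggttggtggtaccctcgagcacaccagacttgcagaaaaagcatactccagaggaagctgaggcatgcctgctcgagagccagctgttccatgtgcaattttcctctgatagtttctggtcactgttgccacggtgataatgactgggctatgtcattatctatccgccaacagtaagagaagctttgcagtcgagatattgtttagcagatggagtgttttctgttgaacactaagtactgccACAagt

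Box C in this exact spelling was found in 13 of 16 SNORD gene models under a peak in both replicates, SNORD87 of SNHG6 left out, and CTGA in 16 of 16. Over all GENCODE SNORD genes, TGATGA was found in 65.5% and CTGA in 87.2%. The ACA of the H/ACA genes was found in 11 of 13 such models, beside 82.2% of all SNORA genes. SNORA73A and SNORA73B were identical at 193 of 207 aligned positions (93.2%). SNORD12C and SNORD12 shared 73.7%, SNORD49A and SNORD49B of SNHG29 78.9%, and SNORA71A and SNORA71D of SNHG17 83.2%. Reads from such copies could have been placed on either one, and how the authors' alignment treated them was not tested. Of the 31-mers in each peak, the share that occurs once in the genome had a median of 100% and a lowest value of 70.6% in replicate 1 and 71.7% in replicate 2.

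Of the 31 hosts, 21 had a peak in replicate 1 and 25 in replicate 2, and 20 had one in both. Over all 18866 lncRNA genes the shares were 9.94% in replicate 1, 11.1% in replicate 2 and 7.56% in both. Over lncRNA genes with more than 1 exon, 8.24% had a peak in both, although their median span of 9678 bp was longer than that of the hosts (6851 bp). The 20 hosts made up 64.5% of the class. Of 266 protein-coding genes that carry an intronic snoRNA gene 63.9% had a peak in both replicates, over a median span of 53692 bp, and of 50 other lncRNA genes with an intronic snoRNA gene 22%.

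In each of these 20 hosts at least 1 peak of replicate 1 overlapped 1 of replicate 2. They were GAS5, SNHG1, SNHG3, SNHG4, SNHG5, SNHG6, SNHG7, SNHG8, SNHG10, SNHG12, SNHG14, SNHG15, SNHG16, SNHG17, SNHG19, SNHG22, SNHG25, SNHG29, SNHG32 and ZFAS1. Without peaks over exons of other genes, 13 hosts had such a pair, and the only SNHG14 pair, over exons of UBE3A, was among those lost. A further 5, EPB41L4A-AS1, SNHG11, SNHG18, SNHG20 and SNHG30, had a peak in replicate 2 only, and SNHG31 had one in replicate 1 only. No peak was listed in SNHG9, SNHG21, SNHG26, SNHG27 and SNHG28. Of the host peaks, 84% in replicate 1 (42 of 50, 95% Wilson interval 71.5 to 91.7%) and 78.6% in replicate 2 (44 of 56, 66.2 to 87.3%) overlapped the other list. Over all peaks the shares were 60.1% and 61.2%. The intervals cover counting error only.

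**Figure D1:**
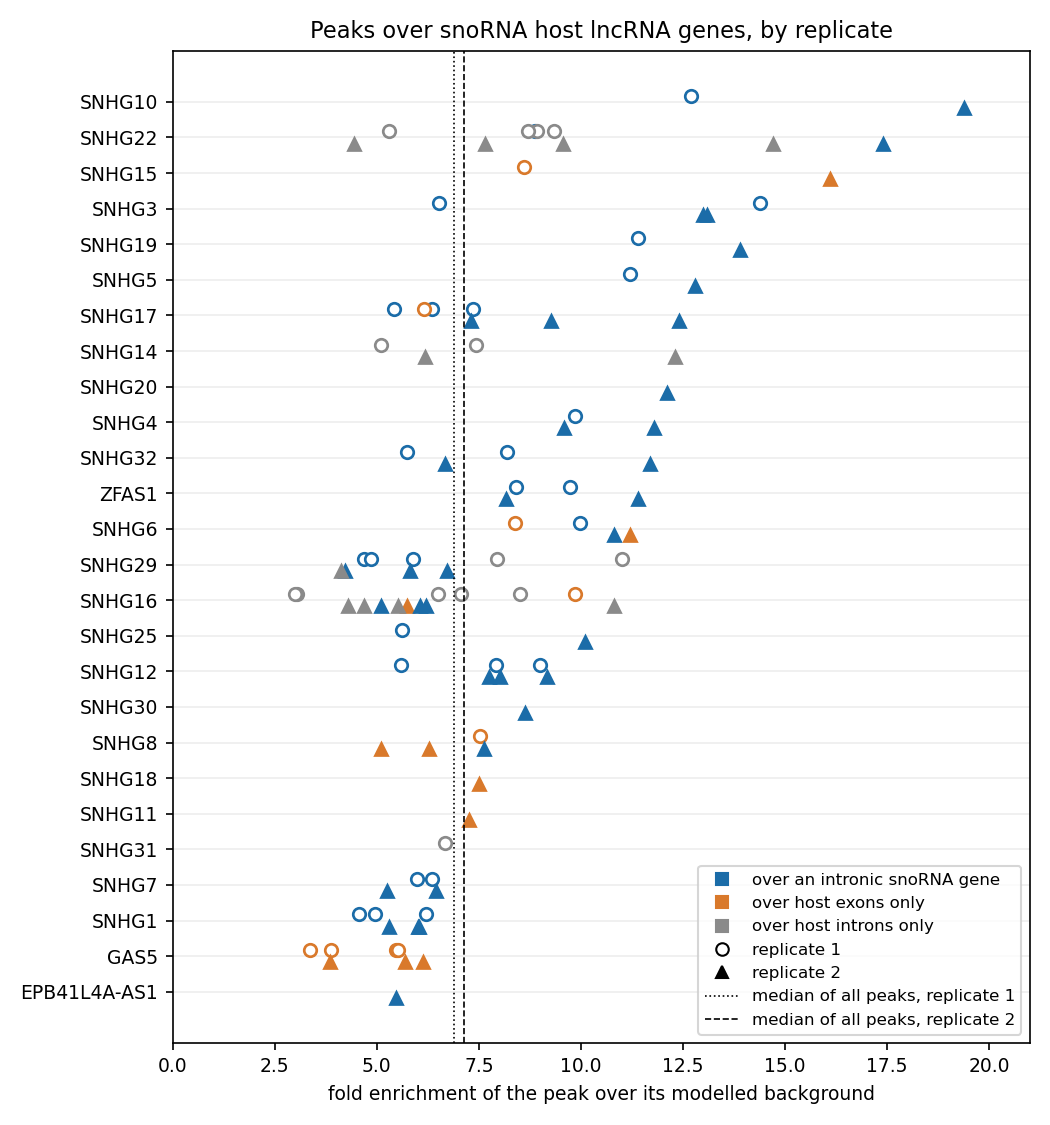
Fold enrichment of every peak over a snoRNA host lncRNA gene (x axis, ratio to the modelled background), 1 line per gene, with open circles for replicate 1, filled triangles for replicate 2 and colour for what the peak lies over. SNHG10 stands highest in replicate 2 at 19.4, whereas the peaks of GAS5, SNHG1 and SNHG7 lie below both medians of all peaks (dotted and dashed lines).

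Host peaks were sorted first by whether they overlapped an intronic snoRNA gene, that is, a snoRNA or scaRNA gene on the host strand outside the exons of the canonical transcript. In replicate 1 these were 27 of 50 peaks (54%, 40.4 to 67%) and in replicate 2 they were 35 of 56 (62.5%, 49.4 to 74%), a mean of 58.2% ± 6.01 (SD, n = 2). Where the summit had to lie within 50 nt of the snoRNA gene, the mean was 30.9%, and where at least 50% of the shorter interval had to be shared, the shares were 48% in replicate 1 and 58.9% in replicate 2. Over all peaks, 0.62% in replicate 1 and 0.947% in replicate 2 overlapped a snoRNA or scaRNA gene. A window of the same width as the peak touched an intronic snoRNA gene at 13.5% and 13.1% of the positions in the same genes, on average over the peaks. In hosts of 10 kb or more, where these positions made up 4.7% and 4.31%, snoRNA peaks made up 12 of 32 (replicate 1) and 17 of 32 (replicate 2).

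Peaks over exons of the canonical transcript and over no intronic snoRNA gene numbered 9 (18%) and 10 (17.9%), and peaks over introns alone numbered 14 (28%) and 11 (19.6%). Of the intron-only peaks, 12 of 14 and 11 of 11 overlapped an exon of a protein-coding gene on the opposite strand. Since the peaks carry no strand, the host and the opposite gene cannot be told apart there. The 2 others, both in replicate 1 only, lay in SNHG16 (6.49-fold) and in SNHG29 (11-fold, with a pileup of 40). Among the exon-only peaks, 5 of 9 and 5 of 10 overlapped a snoRNA gene that GENCODE 44 places in a host exon or that only RefSeq lists. A further 1 and 3 overlapped an opposite protein-coding exon, and the remaining 3 and 2 reached the first exon of the host. Peaks over any annotated snoRNA gene were thus 32 of 50 (64%) in replicate 1 and 40 of 56 (71.4%) in replicate 2.

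Introns with a GENCODE snoRNA gene lay under peaks more often than host introns without one. Leaving out SNHG14, 30 of 48 introns with a snoRNA gene lay under a peak in both replicates (62.5%, 48.4 to 74.8%), against 16 of 64 without one (25%, 16 to 36.8%). The first were not longer, with a median of 655.5 bp against 807 bp. Introns without a GENCODE gene include those of GAS5, where RefSeq lists 11 snoRNA genes, 5 of them under a peak in both replicates. They also include the introns of SNORD29, SNORD31 and SNORD50A, which only RefSeq lists and which lay under a peak in both replicates. The 16 covered introns thus include those of SNORD81, SNORD47, SNORD78, SNORD76 and SNORD75 in GAS5. The introns of SNORD29 and SNORD31 in SNHG1 and of SNORD50A in SNHG5 are among them as well. The 25% is therefore no share of introns free of snoRNA genes. The full number of introns with a RefSeq-only gene among the 16 was not counted. In the hosts of under 10 kb, the counts were 18 of 27 introns with a snoRNA gene and 4 of 20 without, at median lengths of 454 and 431.5 bp. The protein-coding hosts had 33.4% of 332 introns with a snoRNA gene and 6.1% of 3637 without under a peak in both.

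By base, 44.3% of the intronic snoRNA genes of hosts other than SNHG14 lay under a peak in replicate 1 and 60.8% in replicate 2. For the canonical exons of the same hosts these shares were 7.23% and 8.21%, and for the introns as a whole 2.71% and 2.94%. With SNHG14 the snoRNA share was 20.4% in replicate 1 and 28.1% in replicate 2, a mean of 24.2% ± 5.39 (SD, n = 2). The exon share was then 6.81% ± 0.607 (SD, n = 2) and the intron share 2.16% ± 0.0516 (SD, n = 2).

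The hosts held 138 annotated intronic snoRNA genes, 82 of them in SNHG14, and 35 of the 138 lay under a peak in both replicates (25.4%, 18.8 to 33.2%). None of the 35 was in SNHG14, so they made up 62.5% (49.4 to 74%) of the 56 in the rest of the hosts. Of these 56, 8 were covered in replicate 2 only, none in replicate 1 only, and 13 in neither. Some models overlap each other, such as a pair for SNORA16A and a pair for SNORA17B, and over separate loci the count was 31 of 52 (59.6%). Of the intronic snoRNA genes of all other hosts, 20.6% of 447 lay under a peak in both. Box C/D genes of the lncRNA hosts without SNHG14 were covered in 17 of 26 cases (65.4%, 46.2 to 80.6%) and box H/ACA genes in 13 of 22 (59.1%, 38.7 to 76.7%), intervals that overlap. With SNHG14, C/D genes were covered in 17 of 108 cases (15.7%, 10.1 to 23.8%). In protein-coding hosts the shares were 41.3% of 121 (32.9 to 50.2%) and 25% of 112 (17.9 to 33.8%). In the other lncRNA hosts, 0 of 43 C/D genes (95% Wilson upper limit 8.2%) and 3 of 17 H/ACA genes were covered. How many of these genes OE-19 cells express was not measured here.

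**Figure D2:**
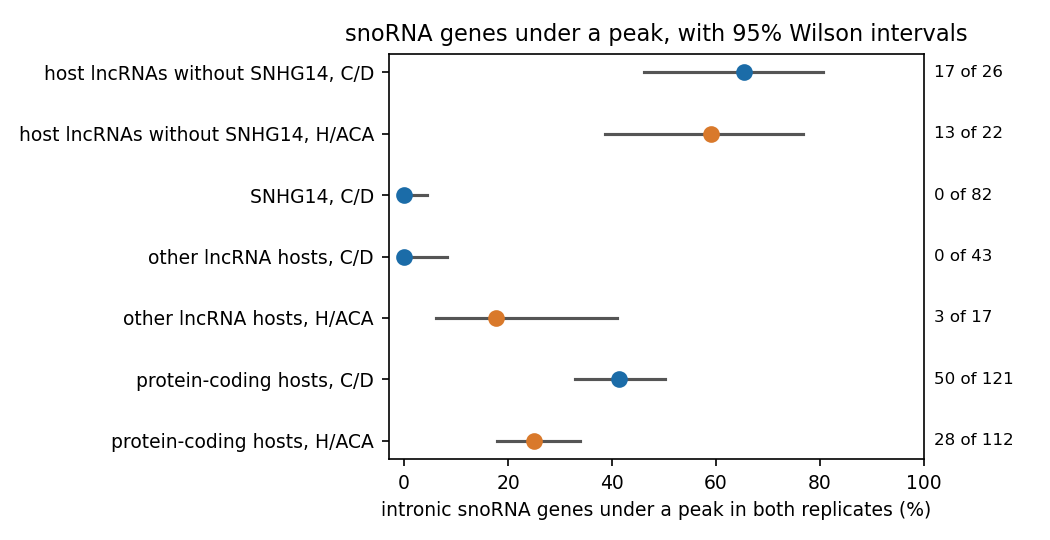
Share of intronic snoRNA genes under a peak in both replicates (x axis, percent) by kind of host and kind of snoRNA, with 95% Wilson intervals and the counts at the right, blue for box C/D and orange for box H/ACA. The host lncRNAs without SNHG14 stand highest at 65.4% and 59.1%, and SNHG14 stands at 0 of 82.

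Where a peak touched a single intronic snoRNA locus, it lay over the 5′ part of the snoRNA gene and the host sequence before it. This held for 24 peaks in replicate 1 and 32 in replicate 2, and 24 of 24 and 32 of 32 covered the 5′ end of the snoRNA gene. The 3′ end was covered by 4 of 24 and 4 of 32. The median peak began 231 nt before the snoRNA gene in replicate 1 and 243.5 nt before it in replicate 2. Its downstream edge stood 27 and 20.5 nt before the 3′ end in the median. For box C/D genes alone this edge stood 6 nt (12 peaks) and 8.5 nt (16 peaks) before the 3′ end, so the median peak covered most of the gene. For box H/ACA genes it stood 56 nt (11 peaks) and 38.5 nt (14 peaks) before it. The upstream edge stood a similar distance away for both kinds. For C/D genes its median was -237 nt from the 5′ end in replicate 1 and -245.5 nt in replicate 2. For H/ACA genes these were -225 and -238 nt. Several of these peaks were within a few bp of the narrowest in their list, 293 and 294 bp. How the authors' peak caller set these edges was not tested, so the host sequence under a peak is not shown to be bound.

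The order was the same on both strands of the genome. For hosts on the plus strand, 11 of 11 and 19 of 19 such peaks covered the 5′ end and 3 of each the 3′ end. For hosts on the minus strand the counts were 13 of 13 and 13 of 13 for the 5′ end and 1 of each for the 3′ end. Summits lay upstream of the snoRNA gene in 18 of 24 peaks (75%, 55.1 to 88%) and 23 of 32 (71.9%, 54.6 to 84.4%), and inside it in 5 and 9. For the snoRNA genes of other hosts, 70 of 72 peaks (replicate 1) and 125 of 126 (replicate 2) covered the 5′ end and 24 and 20 the 3′ end, so the placement was not particular to the host lncRNAs. Whether the reads came from the mature snoRNA, from the unspliced host or from both cannot be told apart in a list of peaks of this width. In 18 of 27 and 24 of 35 snoRNA peaks, the peak also reached a canonical host exon, and in 7 and 9 the summit lay in that exon.

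**Figure D3:**
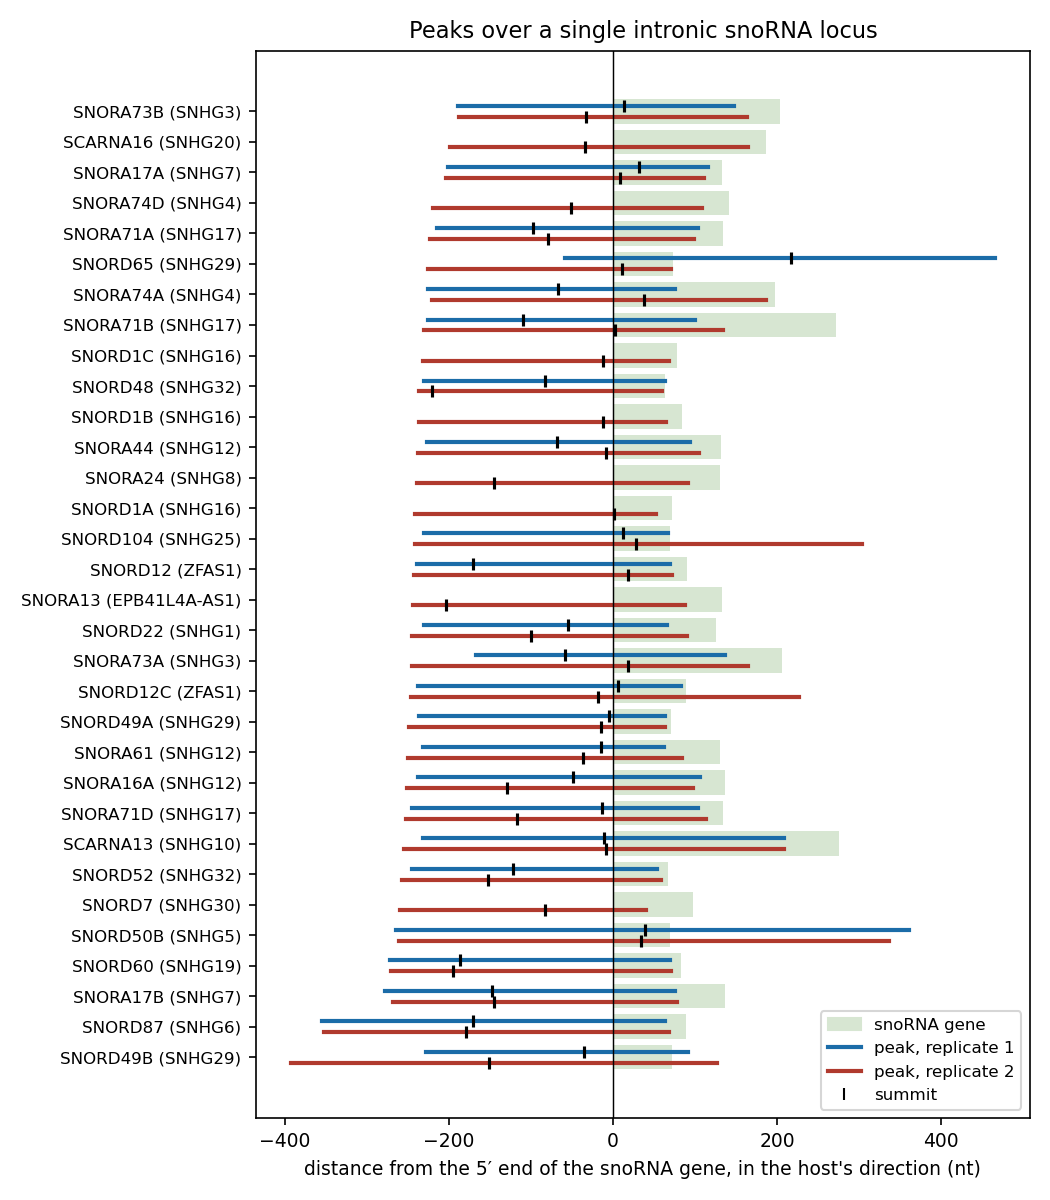
Peaks that touch a single intronic snoRNA locus, drawn from the 5′ end of the snoRNA gene in the direction of the host (x axis, nt), with blue lines for replicate 1, red lines for replicate 2, ticks for summits and pale bars for the snoRNA genes. All 24 and 32 peaks cross the 5′ end, and 4 in each replicate reach past the 3′ end.

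By the lower of its fold percentiles, the strongest overlapping pair lay over SCARNA13, a scaRNA gene near the 5′ end of SNHG10. Fold enrichment was 12.7 in replicate 1 (chr14:95533421-95533861) and 19.4 in replicate 2 (chr14:95533421-95533884), the 95.1st and 99.5th percentiles of their lists. Both peaks covered the 5′ part of the scaRNA gene and part of the first exon, and both also reached an exon of GLRX5 on the opposite strand. The pileup was 38 reads in replicate 1 and 85 in replicate 2.

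SNHG3 carries the genes of SNORA73A and SNORA73B, H/ACA RNAs with a role in processing the precursor of small-subunit ribosomal RNA. Over SNORA73B the fold enrichment was 14.4 in replicate 1 and 13.1 in replicate 2. Over SNORA73A it was 6.52 and 13, so that the copies stood apart in replicate 1 and close together in replicate 2. None of these peaks touched a canonical exon of SNHG3, and no other peak was listed in the gene. The SNORA73A peaks lay wholly within exons of other annotated SNHG3 transcripts.

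SNHG19, a host of 614 bp on chromosome 16, had 1 peak in each replicate over SNORD60, 11.4-fold and 13.9-fold. Since the peak was 343 bp wide in each, it covered 235 and 234 bp of canonical exon as well, and its summit lay in the exon. SNHG5 had 1 peak in each over SNORD50B, 11.2-fold and 12.8-fold, with the summit inside the snoRNA gene. This peak also covered SNORD50A, which only RefSeq lists, and an exon of an unnamed gene on the same strand. In SNHG6 a peak over SNORD87 reached 9.98-fold and 10.8-fold and a separate peak over the first exon 8.38-fold and 11.2-fold. The first-exon peak of SNHG6 lay over no other annotated exon.

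SNHG4 shares its strand with MATR3, a protein-coding gene with exons under the same peaks. Its peak over SNORA74A was 9.86-fold in replicate 1 and 11.8-fold in replicate 2. A peak over SNORA74D was listed in replicate 2 only, at 9.58-fold. In SNHG22 the peak over SCARNA17 was 8.88-fold in replicate 1 and 17.4-fold in replicate 2, at pileups of 11 and 42 reads, and the second also reached an exon of ACAA2 on the opposite strand. The 3 other SNHG22 pairs, at 7.65-fold to 14.7-fold, lay in its introns over exons of MYO5B on the opposite strand.

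ZFAS1 had 2 peaks in each replicate and both overlapped between replicates. Over SNORD12C the fold enrichment was 9.74 in replicate 1 (chr20:49278702-49279023) and 11.4 in replicate 2 (chr20:49278694-49279167). Over SNORD12 it was 8.41 and 8.16. SNORD12B, which lies 1110 nt after the preceding exon and 75 nt before the next, was under no peak in either replicate. The ZFAS1 peaks thus lay over 2 of its 3 snoRNA genes.

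EPB41L4A-AS1 had 1 peak, in replicate 2 only (chr5:112161241-112161573), at 5.47-fold and a pileup of 8 reads. The peak reached into SNORA13, an H/ACA snoRNA gene, and its summit lay in a host exon 203 nt before that gene. This was among the shallowest peaks of the hosts, and the fold stood at the 18.8th percentile of its list.

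The GAS5 peaks were among the deepest of the hosts and among the least enriched. It had 4 peaks in replicate 1, at 3.37-fold to 5.51-fold, and 3 in replicate 2, at 3.84-fold to 6.13-fold, and 3 pairs overlapped. The pileups were 51 to 84 reads in replicate 1 and 65 to 105 in replicate 2, against a median of 22 over all peaks. The modelled background under them had a median of 14.4 reads in replicate 1 and 16.2 in replicate 2, against 2.05 and 1.79 over all peaks. All 7 peaks counted as exon-only, because GENCODE 44 lists no snoRNA gene inside GAS5. RefSeq lists 11, and 5 of them, SNORD81, SNORD47, SNORD78, SNORD76 and SNORD75, lay under a peak in both replicates. SNORD74 was covered in replicate 1 only and SNORD79 in replicate 2 only. None of the GAS5 summits lay in a canonical exon.

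**Figure D4:**
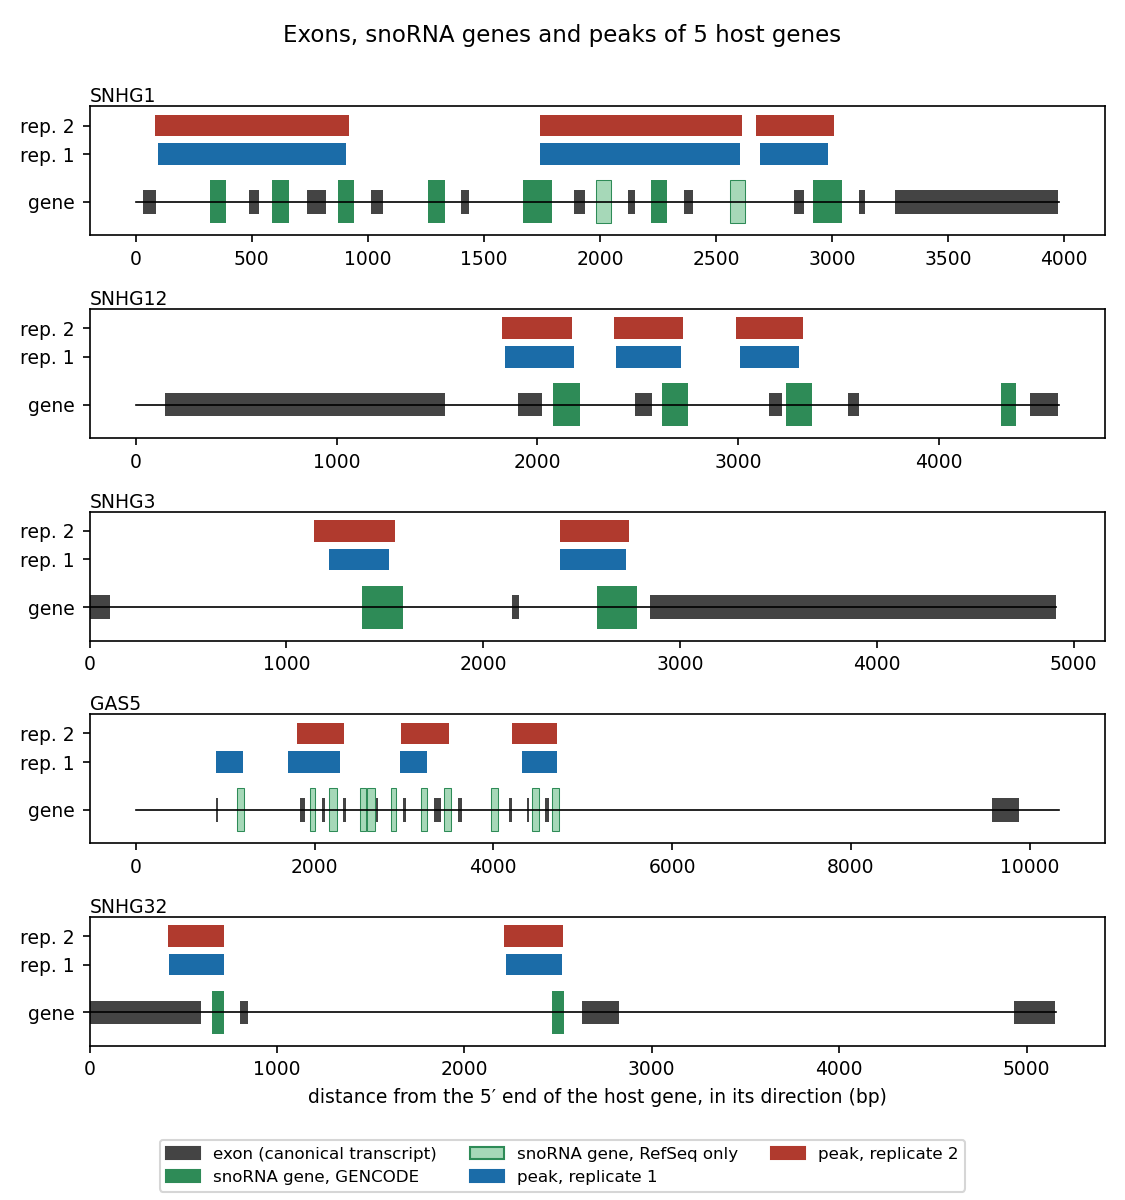
Exons of the canonical transcript (dark), snoRNA genes (green, pale where only RefSeq lists them) and peaks of replicate 1 (blue) and replicate 2 (red) in SNHG1, SNHG12, SNHG3, GAS5 and SNHG32, in bp from the 5′ end of each gene (x axis). Peaks sit over introns with snoRNA genes, and many reach a flanking exon, though none does in SNHG3. Some of the snoRNA genes, such as SNORD28 of SNHG1 and SNORD99 of SNHG12, lie under no peak. The long last exons of SNHG1 and SNHG3 and the long first exon of SNHG12 carry none.

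SNHG1, which hosts SNORD22 and SNORD25 to SNORD31, had 3 peaks in each replicate, and all 3 overlapped. Their fold enrichments were low, 4.56 to 6.21 in replicate 1 and 5.29 to 6.04 in replicate 2, at pileups of 57 to 78 and 76 to 88 reads. Together they covered 6 of the 7 snoRNA genes that GENCODE lists in it, all but SNORD28. SNORD29 and SNORD31, listed by RefSeq alone, were covered too. Since single peaks span up to 3 of the GENCODE snoRNA genes there, their separate values are unknown.

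SNHG12 had 3 pairs, over SNORA61 (5.58-fold and 8.02-fold), SNORA44 (7.91-fold and 9.16-fold) and SNORA16A (8.99-fold and 7.76-fold), and its C/D gene SNORD99 was under no peak. SNHG17, with 5 SNORA71 genes, had pairs over SNORA71B (6.34-fold and 9.26-fold), SNORA71A (5.42-fold and 7.3-fold) and SNORA71D (7.35-fold and 12.4-fold), none of which reached a canonical exon. SNORA71C and the gene named SNORA71 lay under no peak. A peak over the first exon of SNHG17 was listed in replicate 1 only, at 6.16-fold. SNHG7 had pairs over SNORA17B (5.98-fold and 6.45-fold) and SNORA17A (6.36-fold and 5.25-fold).

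Among the hosts of C/D genes, SNHG32 had pairs over SNORD48 (5.75-fold and 6.67-fold) and SNORD52 (8.18-fold and 11.7-fold), and SNHG25, of 540 bp, had 1 over SNORD104 (5.61-fold and 10.1-fold). SNHG29 pairs lay over SNORD49B (4.69-fold and 6.73-fold), SNORD49A (4.86-fold and 5.8-fold) and SNORD65 (5.89-fold and 4.21-fold), all below the median fold of all peaks in their replicate. The replicate 1 peak over SNORD65 also overlapped a replicate 2 peak (4.13-fold) that did not touch SNORD65. In SNHG16 the genes SNORD1A, SNORD1B and SNORD1C were covered in replicate 2 only, at 5.09-fold to 6.2-fold. Its first exon had a pair, 9.86-fold and 5.73-fold, and both peaks also reached an exon of an unnamed gene on the opposite strand. The replicate 1 summit of that pair lay just before the start of SNHG16. The 4 other SNHG16 pairs lay over exons of ST6GALNAC1 on the opposite strand. SCARNA16 in SNHG20 (12.1-fold), SNORD7 in SNHG30 (8.64-fold) and SNORA24 in SNHG8 (7.63-fold) were also covered in replicate 2 only.

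In SNHG15 the snoRNA gene SNORA9 lies inside an exon of the canonical transcript, so its pair counted as exon-only. Fold enrichment there was 8.6 in replicate 1 and 16.1 in replicate 2. SNHG11 had a peak over SNORA71E, also inside an exon, in replicate 2 only (7.25-fold). The exon-only peaks of SNHG8 (7.53-fold in replicate 1, 5.09-fold and 6.27-fold in replicate 2) overlapped an exon of PRSS12 on the opposite strand, and that of SNHG18 (7.51-fold, replicate 2 only) one of SEMA5A.

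SNHG14, which makes up 41.1% of the summed host span, is the host of the imprinted SNORD115 and SNORD116 clusters and runs antisense to UBE3A at its end. None of its 82 intronic snoRNA genes lay under a peak in either replicate. By the canonical transcript, 35 of the 82 lie between exons. The others, all SNORD116 genes among them, lie before its first exon. The 95% Wilson upper limit of 0 of 82 is 4.48%, and the level of 3 such genes is 3.66%. Its peaks, 5.1-fold and 7.44-fold in replicate 1 and 6.18-fold and 12.3-fold in replicate 2, all lay over exons of UBE3A. Of the 31 hosts, SNHG31 was similar in that its single peak (6.66-fold, replicate 1 only) lay over an exon of ABCA12 on the opposite strand.

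Fold enrichment of the host peaks was near the middle of each list and their depth was not. The median fold percentile was 49.1 in replicate 1 and 57.5 in replicate 2, while the median percentile of the pileup was 76.1 and 82.7 and that of −log10 q was 72.8 and 85.6. Median pileups were 38 and 46.5 reads against 22 over all peaks, and median modelled backgrounds 4.07 and 5.09 reads against 2.05 and 1.79. The snoRNA peaks had a median fold of 6.52 in replicate 1 (4.56 to 14.4, n = 27) and 8.16 in replicate 2 (4.21 to 19.4, n = 35). For exon-only peaks it was 6.16 (3.37 to 9.86, n = 9) and 6.2 (3.84 to 16.1, n = 10). The ranges overlapped. The difference of the medians, snoRNA minus exon-only, was 0.362 in replicate 1 and 1.95 in replicate 2, a mean of 1.16. With every RefSeq snoRNA gene inside a host counted as well, an annotation chosen after seeing the data, it was -1.61 in replicate 1 and 1.62 in replicate 2, so the direction turned in replicate 1 and the mean was 0.00673.

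Most snoRNA peaks stood higher in replicate 2 than in replicate 1. Of the 28 pairs whose replicate 1 peak was a snoRNA peak, 21 had the higher fold percentile in replicate 2, and of all 44 host pairs 31 (70.5%). Over all 13071 overlapping pairs this share was 50.4%. The median ratio of replicate 2 to replicate 1 fold was 1.18 for the 28 pairs (0.701 to 2) and 1.05 over all pairs. It was 1.16 for 15 pairs over SNORD genes and 1.35 for 13 over SNORA or SCARNA genes. In the same direction, 8 host snoRNA genes were covered in replicate 2 only and none in replicate 1 only. Across the 353 snoRNA genes of protein-coding hosts, 61 were covered in replicate 2 only and 6 in replicate 1 only. With 2 samples, which the labels do not give as separate cultures, no cause of this difference was tested.

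**Figure D5:**
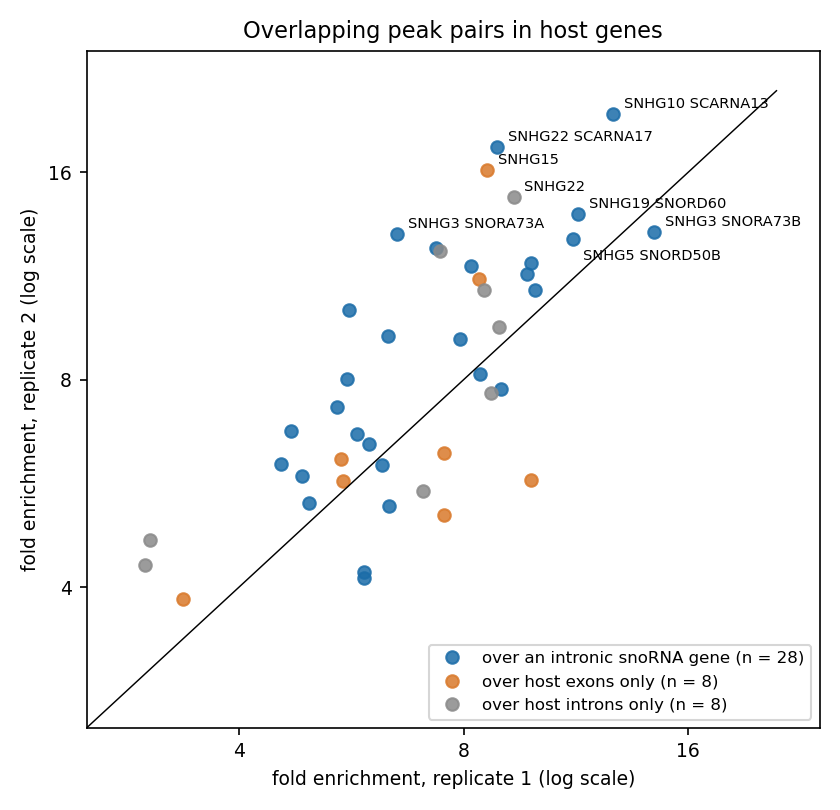
Fold enrichment of overlapping peaks in replicate 1 (x axis) and replicate 2 (y axis), both on a log scale. By the class of the replicate 1 peak, 28 pairs lie over an intronic snoRNA gene, 8 over host exons only and 8 over host introns only. In 27 of the 28 the replicate 2 peak is a snoRNA peak too. Of the 44 pairs, 31 have the higher fold percentile in replicate 2, and SCARNA13, SCARNA17 and SNORA73A stand above the diagonal of equal values.

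The median distance from the snoRNA gene to the next exon was longer for H/ACA than for C/D genes, and the ranges overlapped. For C/D genes outside SNHG14 the next canonical exon began a median of 94 nt after the gene (n = 26), and for H/ACA genes 552 nt after it (n = 22). The preceding exon ended a median of 207.5 nt before the C/D genes and 250.5 nt before the H/ACA genes. The snoRNA genes under a peak in both replicates lay a median of 90 nt after the preceding exon (n = 35), and those under no peak 1110 nt after it (n = 13). The ranges, 18 to 3598 nt and 54 to 40306 nt, overlapped. Both groups hold C/D and H/ACA genes. The genes under no peak include those of SNHG9, SNHG21, SNHG26, SNHG27 and SNHG28, hosts with no peak at all. The parts of the kind of snoRNA and of the host in this difference were not tested.

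The letters GGAC, the core of the sequence in which N6-methyladenosine is most often placed, were searched on the host strand within 50 nt of the summit. They were found in 2 of 9 exon-only peaks in replicate 1 (22.2%, 6.32 to 54.7%) and 3 of 10 in replicate 2 (30%, 10.8 to 60.3%). Over all peaks with the summit in a canonical exon the shares were 32.5% and 35.3%, inside both intervals. The sets are unlike, since exon-only host peaks were taken by overlap with an exon. Several of their summits, all those of GAS5 among them, lay outside canonical exons. Of the snoRNA peaks, 12 of 27 (44.4%) and 11 of 35 (31.4%) held GGAC. A match is no evidence of the mark, and no measure of it was used here.

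Of 19 genes for the proteins that build snoRNPs, 14 (73.7%) had a peak in both replicates and 11 (57.9%) an overlapping pair. Their median span was 16572 bp. Over all annotated genes, with a median span of 3612 bp, the shares were 15.4% and 13.8%. Over protein-coding genes with an intronic snoRNA gene, with a median span of 53692 bp, they were 63.9% and 57.9%. Among core proteins, the H/ACA component NOP10 had the highest values, 16.3-fold and 14.6-fold, followed by the C/D component SNU13 at 10.7-fold and 10.4-fold. The methyltransferase FBL had peaks in both replicates (highest 5.99-fold and 6.68-fold) that did not overlap, as did NOP58 (6.7-fold and 8.66-fold) and the assembly factor NAF1 (4.47-fold and 6.38-fold). NOP56, itself a host, had 1 pair (4.22-fold and 5.72-fold) that covered 2 of its 5 intronic snoRNA genes. NOP58 and DKC1 are hosts too, with 4 and 2 intronic snoRNA genes, none of them under a peak in both replicates. DKC1, the pseudouridine synthase, and the assembly factors PIH1D1 and RPAP3 had no peak, and GAR1 and RUVBL2 had one in replicate 1 only. The assembly factors SHQ1, NUFIP1, ZNHIT3, ZNHIT6 and RUVBL1, the H/ACA protein NHP2 and the nucleolar proteins NOLC1 and TCOF1 had overlapping pairs.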

How the data were processed

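IGF2BP3 LACE-seq of OE-19 cells was analysed as 2 deposited peak lists, 1 per replicate, both used in full. According to the methods, RNA was crosslinked with UV, immunoprecipitated, fragmented with MNase and reverse transcribed. The submitters' processing notes name fastp, HISAT2, MACS2 and hg38, whereas the methods name Bowtie for alignment and Piranha for peaks. The deposited columns and the values follow the MACS layout and its Poisson model, and which aligner was used stayed unsettled. Peaks were called per replicate by the authors.

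Each deposited line gives other columns for start, end and summit. The fold enrichment is a ratio as deposited. P-values and q-values were deposited as −log10. A deposited score column repeats the q-value and was not used. Read totals are unknown. A whole pileup that reproduces fold and p-value within 0.001 was found for 21142 of 21142 and 20799 of 20799 peaks.

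Genes, exons of the Ensembl canonical transcript and snoRNA genes came from GENCODE 44, and RefSeq (GRCh38.p14) served as an added snoRNA annotation. Of 456 snoRNA symbols in both, 444 overlapped by position. Overlap means at least 1 bp and coordinates are 1-based. Percentiles are ranks within a list. Scripts ran in Python 3.11.15 with pandas 2.3.3, scipy 1.17.1 and pysam 0.24.0 and were tested on simulated data. The hosts in full detail are GAS5, ZFAS1, EPB41L4A-AS1 and those with the highest lower fold percentile in an overlapping pair. Members, lists and comparisons were chosen with earlier results of these data known. No test was made, because there is 1 group of 2 samples.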

Additional observations from a re-analysis of the deposited data

How the results depend on the processing

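Of 113 recomputed values, 27 could not move by construction: 16 leave out a replicate, which gives the other's value, and 11 leave out peaks with under 50% single-copy 31-mers, which removed none. Of the other 86, 56 stayed within 1.5 times (counts) or 1 SD (other values). The replicates' own values were: 50 and 56 host peaks, 54 and 62.5% over an intronic snoRNA gene, 18 and 17.9% over exons only. Without peaks over exons of other genes, 13 hosts had an overlapping pair, 33.5 peaks remained per replicate, 77.4% lay over an intronic snoRNA gene and 19.5% over exons only, the fold percentile was 46.1 and 4.45% of exon bases were covered. With the top 5000 peaks, these were 29.5 peaks, 72.3%, 15.6%, 73.2 and 4.96%, with 67.7% overlapping, a fold difference of 2.48, 20 snoRNA genes covered and GGAC in 42.5%. The exon-only share was 16.3% with summits inside the gene, 18.8% with exons of all transcripts (5.09% of exon bases covered), 18% with 50% overlap, 18.3% at −log10 q of 5 or more and 18.6% without SNHG14 (7.72% of bases). Adding RefSeq snoRNA genes, chosen after seeing the data, gave 67.7% over a snoRNA gene, 8.46% over exons only, a fold difference of 0.00673 (-1.61 and 1.62 by replicate, turned in replicate 1) and GGAC in 10%. Requiring the summit within 50 nt of the snoRNA gene gave 30.9%. The percentile of −log10 q was 79.2, and GGAC windows of 25 and 100 nt gave 20.6% and 48.3%. No paired analysis was possible because there is a single group. Peaks wider than the snoRNA genes, the missing strand and the absence of an input library limit all results.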
